A study of Mus musculus with 16 samples.

Results

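The TAM family of receptor tyrosine kinases and its ligands were followed in mouse microglia and astrocytes. The 5 genes are the receptors Axl, Mertk and Tyro3 and the ligands Gas6 and Pros1, found by gene symbol among 56989 features of the 2 deposited gene count tables. Each symbol matched 1 feature in each table. The study asked what the scaffold protein Rack1 does in microglia in Alzheimer's disease (AD). Its 16 RNA sequencing libraries covered 4 genotypes in each cell type, with 2 libraries per genotype. AD CKO animals carried an AD model and a conditional knockout of Rack1 in microglia. AD WT animals carried the AD model with Rack1 intact, CKO animals carried the knockout without the AD model, and WT animals carried neither. The AD model, the Cre driver, the age and sex of the animals and the way the cells were isolated are not given in the sources used here. Nothing says that the libraries of a genotype came from different animals, so standard errors and p values measure the spread between these libraries, which may be technical.

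TAM receptors sit in the plasma membrane and are switched on by Gas6 and protein S (the product of Pros1), which bridge them to phosphatidylserine on the surface of dying cells and debris. Gas6 binds all members of the family, while protein S acts mainly through Mertk and Tyro3. In the brain Mertk and Axl are best known from microglia, where Mertk serves the clearance of apoptotic cells and Axl is a gene of inflamed and plaque-associated microglia. Astrocytes are also known to engulf debris through Mertk, and Tyro3 is best known from neurons.

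Totals were 27741882 to 33933068 counts per microglia library and 29615853 to 35851170 per astrocyte library. Levels are given as CPM, counts scaled to the library's total with TMM factors within each table. Rack1, the targeted gene, stood at 47.2 and 47.8 CPM in AD CKO microglia, against 113 and 115 CPM in AD WT microglia. It stood at 40.4 and 42.0 CPM in CKO microglia, against 98.1 and 95.2 CPM in WT microglia. The 10 microglia markers, such as P2ry12 and Tmem119, summed to between 30498 and 51141 CPM in the microglia libraries, where the 10 astrocyte markers summed to 298 to 417 CPM. The astrocyte markers, such as Aqp4 and Slc1a2, summed to between 10213 and 24161 CPM in the astrocyte libraries, where the microglia markers summed to 523 to 1842 CPM. No marker of the labelled cell type was at 0 in any library. The astrocyte libraries also held 6642 to 18792 CPM of oligodendrocyte markers, so they were not pure. In such bulk samples fewer cells of a type and less RNA per cell cannot be told apart.

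The genes lie on 4 mouse chromosomes in mm10. Axl spans positions 25757273 to 25788705 of chromosome 7 on the minus strand, and Gas6 spans 13465374 to 13494490 of chromosome 8, also on the minus strand. Mertk (128698956 to 128802894) and Tyro3 (119797733 to 119818104) both lie on the plus strand of chromosome 2. Pros1 spans 62854307 to 62929346 of chromosome 16 on the plus strand. Mertk overlaps the antisense gene Gm14011 and the small nucleolar RNA gene Gm23172, and the 3′ end of Gas6 overlaps Tmem255b on the other strand. The library kit named in the labels does not mark strand, so reads in those overlaps cannot be told apart. The values of Mertk in microglia were fractional in the deposited table.

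The promoters of 4 members are shown because their RNA levels took different courses in microglia. Axl rose, Gas6 and Pros1 fell, and Mertk passed no test there in the main edgeR fit. Each runs 5′ to 3′ from 250 bases before to 50 bases after the RefSeq start in GRCm38.p6, and capitals mark the GC box core GGGCGG or its reverse complement. The windows are chr7:25788684-25788983 on the minus strand, chr2:128698665-128698964 on the plus strand, chr8:13494486-13494785 on the minus strand and chr16:62854057-62854356 on the plus strand.
Axl: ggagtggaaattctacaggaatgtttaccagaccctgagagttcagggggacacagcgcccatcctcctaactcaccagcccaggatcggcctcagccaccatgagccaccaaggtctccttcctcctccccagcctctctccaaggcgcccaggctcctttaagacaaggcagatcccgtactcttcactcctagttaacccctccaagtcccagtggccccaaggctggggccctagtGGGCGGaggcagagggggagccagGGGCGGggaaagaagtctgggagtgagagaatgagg
Mertk: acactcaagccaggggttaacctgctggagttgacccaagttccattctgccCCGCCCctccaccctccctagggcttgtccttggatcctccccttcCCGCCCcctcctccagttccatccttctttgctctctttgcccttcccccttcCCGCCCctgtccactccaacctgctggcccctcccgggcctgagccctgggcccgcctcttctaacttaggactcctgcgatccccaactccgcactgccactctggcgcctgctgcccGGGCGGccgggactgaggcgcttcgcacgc
Gas6: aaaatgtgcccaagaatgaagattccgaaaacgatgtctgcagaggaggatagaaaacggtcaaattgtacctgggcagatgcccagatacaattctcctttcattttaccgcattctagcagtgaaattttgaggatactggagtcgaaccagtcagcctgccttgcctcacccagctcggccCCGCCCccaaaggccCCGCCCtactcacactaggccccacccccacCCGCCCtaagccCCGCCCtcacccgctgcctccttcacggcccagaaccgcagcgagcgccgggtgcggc
Pros1: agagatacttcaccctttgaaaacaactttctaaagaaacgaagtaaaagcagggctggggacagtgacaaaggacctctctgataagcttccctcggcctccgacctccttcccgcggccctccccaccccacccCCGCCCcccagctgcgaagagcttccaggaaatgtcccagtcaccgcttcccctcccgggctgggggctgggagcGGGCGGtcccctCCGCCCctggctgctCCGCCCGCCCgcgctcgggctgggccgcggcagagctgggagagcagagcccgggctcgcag
On both strands together, with overlapping matches counted, the GC box core occurred 2 times at Axl, 4 times at Mertk, 4 times at Gas6 and 5 times at Pros1, and 6 times at Tyro3. It occurred in 35.6% of 32817 mouse promoters of the same length. An interferon-stimulated response element core (GAAA, 2 free bases and GAAA again, in 3.43% of promoters), TGACTCA (an AP-1 site, 5.2%), GAGGAAGT (a PU.1 site core, 3.2%), TATAAA (13.6%) and a liver X receptor repeat (AGGTCA, 4 free bases and AGGTCA again, 0.0152%) were in none of the 5 windows. TTCNNNGAA, the core of a gamma-activated site, was found at Pros1 only among the 5, and in 8.29% of all promoters. These matches describe the letters and say nothing of binding.

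Microglia and astrocytes held the family in different proportions. Compared per kilobase of merged exons, the WT microglia mean was 203 CPM per kb for Mertk, 195 for Pros1, 131 for Gas6, 36.8 for Axl and 0.274 for Tyro3. In WT astrocytes Gas6 led with 77.4 CPM per kb, then Mertk with 69.2, Axl with 38.8, Pros1 with 28.6 and Tyro3 with 13.1. Neighbours in these orders did not overlap between libraries, but the order of Mertk and Pros1 in WT microglia depended on the length used. With the longest coding transcript Pros1 reached 242 CPM per kb and Mertk 204. Tyro3 in microglia rested on 28 to 74 reads per library, close to the lower limit of what was tested.

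In a fit over all 16 libraries, which scales both cell types together, all 5 genes differed between WT microglia and WT astrocytes. Of all 20589 genes tested, 79.0% did. The libraries of the 2 cell types did not overlap for any of the 5, nor for 88.8% of all genes. Pros1, the gene of protein S, was higher in WT microglia by 3.15 ± 0.0541 on the log2 scale (SE, n = 2 libraries each; 917 CPM in WT microglia and 103 CPM in WT astrocytes). Mertk was higher by 1.93 ± 0.0472, with 1009.9 CPM in WT microglia and 265 CPM in WT astrocytes. Gas6 was higher by 1.14 ± 0.0485, with 383 CPM in WT microglia and 174 CPM in WT astrocytes. Tyro3 was lower in WT microglia, at −5.20 ± 0.143 on the log2 scale, with 1.95 CPM in WT microglia and 71.7 CPM in WT astrocytes. By edgeR's quasi-likelihood test the adjusted p was 1.27e-28 for Pros1, 8.22e-25 for Mertk, 8.64e-19 for Gas6 and 1.54e-23 for Tyro3. Axl differed least, by 0.30 ± 0.0461 (adjusted p = 1.24e-06), with 212 CPM in WT microglia and 173 CPM in WT astrocytes. That call for Axl ended when library totals without TMM factors were used (0.0077, adjusted p = 0.886).

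**Figure D1:**
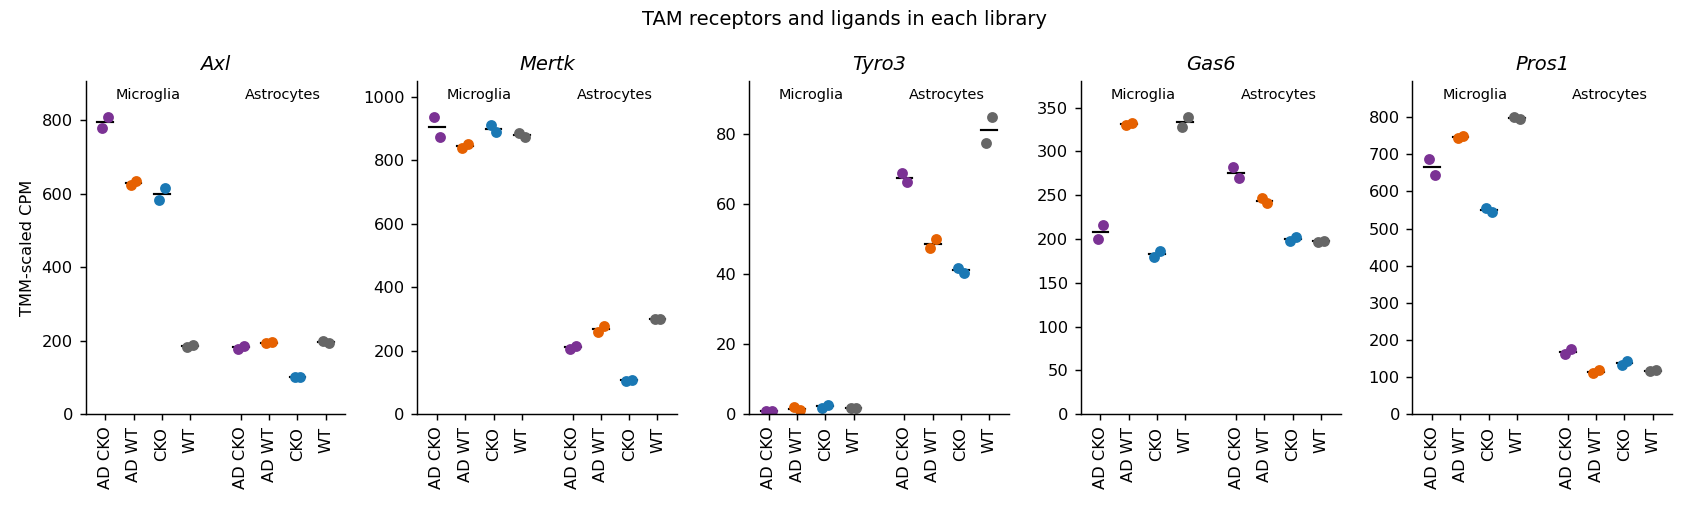
TMM-scaled CPM of each gene (y axis, linear, from 0) in every library, by genotype and cell type; each point is 1 library and each bar the mean of 2. Axl sits at 183 and 187 CPM in WT microglia and at 581 CPM or more in the other microglia, while Mertk stays between 840.1 and 937 CPM in all 8 microglia libraries.

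Axl was the receptor with the largest changes in microglia. It read 778 and 809 CPM in AD CKO microglia, 624 and 635 CPM in AD WT microglia, and 581 and 614 CPM in CKO microglia, against 183 and 187 CPM in WT microglia. No library of the 3 altered genotypes came near the WT pair, and AD CKO stood above all others. Axl rose 3.23-fold in CKO against WT microglia (log2 1.69 ± 0.042, adjusted p = 3.66e-22, edgeR). It rose 3.4-fold in AD WT against WT microglia (log2 1.77 ± 0.042, adjusted p = 7.95e-22, edgeR). These comparisons share the WT libraries. With the AD model present, the knockout added 0.33 ± 0.0403 on the log2 scale in AD CKO against AD WT microglia (adjusted p = 2e-07, edgeR). With the knockout present, the AD model added 0.41 ± 0.0403 in AD CKO against CKO microglia (adjusted p = 1.32e-08, edgeR). The interaction, that is the knockout effect with the AD model minus the knockout effect without it, was −1.36 ± 0.0577 (adjusted p = 5.37e-16, edgeR). The knockout thus moved Axl less with the AD model than without it.

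Markers of border macrophages, which also make Axl, summed to 387 and 393 CPM in AD CKO microglia, 169 CPM in each AD WT library, 491 and 492 CPM in CKO microglia, and 192 and 193 CPM in WT microglia. Of these 6 markers 5 were called higher in CKO against WT microglia (median log2 0.491, highest 3.52). In AD CKO against AD WT microglia 4 were called higher (median log2 0.436, highest 3). All 7 neutrophil markers were called higher in AD WT and in CKO than in WT microglia, with sums of 276 and 289.8 CPM in AD CKO, 444 and 441 CPM in AD WT and 626 and 625 CPM in CKO, against 246 and 229 CPM in WT. All 9 endothelial markers were also called higher in AD WT against WT microglia (800.1 and 804 CPM in AD WT, against 462 and 469.8 CPM in WT), as were all 8 mural markers (338 and 344 CPM in AD WT, against 216 and 221 CPM in WT). The part of all these markers in the Axl values was not tested. The microglia markers summed to 32529 and 33644 CPM in AD CKO, 43954 and 44308 CPM in AD WT, 30498 and 31320 CPM in CKO, and 49067 and 51141 CPM in WT libraries. By gene, 8 of the 10 were called lower and 1 higher in CKO against WT (median log2 −0.452, range −1.96 to 0.147). In AD CKO against AD WT 5 were lower and 2 higher (median −0.19). In AD WT against WT 7 were lower and 1 higher (median −0.22). Ratios to this sum thus also carry changes of the markers themselves, whose part was not tested. Per microglia marker CPM, Axl stood at 6.47 and 6.51 times the WT mean in AD CKO, 3.84 and 3.88 times in AD WT and 5.16 and 5.31 times in CKO. The sum of the oligodendrocyte markers was highest in CKO microglia (8214 and 8609 CPM, against 3138 and 3278 CPM in WT microglia). It was 2257 and 2309 CPM in AD CKO and 3738 and 3741 CPM in AD WT microglia. Of these 9 markers 4 were called higher and 2 lower in CKO against WT microglia. Their median log2 change was 0.219, with a range of −0.385 to 1.69. In AD CKO against CKO microglia 8 of the 9 were called lower (median log2 −2.06), as were all 7 neutrophil markers (median −1.12). The part of these markers in the CKO and AD CKO values was not tested.

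Mertk, the main clearance receptor of resting microglia, read 937 and 872 CPM in AD CKO, 840.1 and 849.8 CPM in AD WT, 911 and 889 CPM in CKO and 886 and 873 CPM in WT microglia. It passed no test in microglia in the main edgeR fit. The largest difference was 0.10 ± 0.0386 on the log2 scale in AD CKO against AD WT (adjusted p = 0.0528, edgeR). That difference crossed the threshold with limma-voom (adjusted p = 0.0279) and with the replicate block in edgeR (0.0177). Leaving out each library in turn gave values from 0.03 to 0.15, the highest without the second AD CKO library. Against WT, Mertk differed by 0.03 ± 0.0386 in CKO microglia and by −0.06 ± 0.0386 in AD WT microglia. With library totals without TMM factors the AD WT value was −0.11 and crossed the threshold (adjusted p = 0.0453, edgeR). It differed by 0.01 ± 0.0386 in AD CKO against CKO (adjusted p = 0.936, edgeR), and its interaction was 0.07 ± 0.0546 (adjusted p = 0.505). Per microglia marker CPM, Mertk stood at 1.64 and 1.48 times the WT mean in AD CKO, 1.09 times in each AD WT library and 1.7 and 1.62 times in CKO. The marker sum itself stood at 0.649 and 0.671 times the WT mean in AD CKO and 0.609 and 0.625 times in CKO. Its part in these ratios was not tested.

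Tyro3, the third receptor, was low in microglia at 0.958 and 0.848 CPM in AD CKO, 2.01 and 1.13 CPM in AD WT, 1.75 and 2.58 CPM in CKO and 1.68 and 1.72 CPM in WT libraries. The AD CKO pair was the lowest. The difference was 0.35 ± 0.359 on the log2 scale in CKO against WT (adjusted p = 0.502, edgeR), −0.11 ± 0.366 in AD WT against WT (adjusted p = 0.891) and −0.80 ± 0.385 in AD CKO against AD WT microglia (adjusted p = 0.119). Its interaction was −1.15 ± 0.527 (adjusted p = 0.167, edgeR). Tyro3 fell in AD CKO against CKO microglia (log2 −1.26 ± 0.379, adjusted p = 0.0233, edgeR), with 28 reads in each AD CKO library and 54 and 74 reads in the CKO libraries. The call ended without the first AD CKO library (adjusted p = 0.0822), the second AD CKO library (0.131) or the second CKO library (0.233). Astrocyte markers, which come from cells rich in Tyro3, summed to 302 CPM on average in AD CKO, 413 CPM in AD WT, 375 CPM in CKO and 326 CPM in WT microglia, and their part in these values was not tested.

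By CPM, the ligands went the other way from Axl when Rack1 was deleted. Gas6, which binds all TAM receptors, read 199.9 and 216 CPM in AD CKO, 330.3 and 333 CPM in AD WT, 179 and 187 CPM in CKO and 328 and 339.7 CPM in WT microglia. The knockout groups were low and the groups with intact Rack1 were high, with no overlap between them. Gas6 fell by 0.87 ± 0.0468 on the log2 scale in CKO against WT microglia (adjusted p = 1.32e-14, edgeR) and by 0.67 ± 0.0465 in AD CKO against AD WT microglia (adjusted p = 4.6e-12, edgeR). In AD WT against WT microglia it differed by −0.01 ± 0.046 (adjusted p = 0.925, edgeR), with overlapping libraries. It was 0.18 ± 0.0469 higher in AD CKO than in CKO microglia (adjusted p = 0.00714, edgeR). That call ended without the second AD CKO library (0.13, adjusted p = 0.133) and with library totals without TMM factors (0.09, adjusted p = 0.196). The Gas6 interaction was 0.19 ± 0.0657 (adjusted p = 0.0517, edgeR). It passed with DESeq2 (adjusted p = 0.043), limma-voom (0.0425), RLE size factors (0.0452), no filter on low counts (0.037) and the replicate block (0.0153), as well as without the first AD CKO library (0.0154) or the first WT library (0.0409). In the other alternatives it missed, with an adjusted p of up to 0.218.

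Pros1, the gene of protein S, read 688 and 645 CPM in AD CKO, 744 and 748 CPM in AD WT, 557 and 544 CPM in CKO and 801 and 796 CPM in WT microglia. CKO was lowest, then AD CKO, then AD WT, then WT, with no overlap. It fell by 0.54 ± 0.0391 on the log2 scale in CKO against WT microglia (adjusted p = 8.23e-12, edgeR) and by 0.16 ± 0.0389 in AD CKO against AD WT microglia (adjusted p = 0.00184, edgeR). The smaller fall lost its call without the second AD CKO library (−0.11, adjusted p = 0.0602). In AD WT against WT microglia the difference was −0.10 ± 0.0389 (adjusted p = 0.0788, edgeR); with limma-voom the adjusted p was 0.0354. Pros1 was 0.28 ± 0.039 higher in AD CKO than in CKO microglia (adjusted p = 6.54e-06, edgeR). Its interaction was 0.38 ± 0.0551 (adjusted p = 1.75e-05, edgeR), so the knockout lowered it less with the AD model. Per microglia marker CPM, Gas6 stood at 0.882 and 0.894 times the WT mean in CKO microglia and Pros1 at 1.14 and 1.09 times. The marker sum itself stood at 0.609 and 0.625 times the WT mean there, and its part in the falls of Gas6 and Pros1 was not tested.

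By count, 3 of the 5 genes changed in CKO against WT microglia (Axl up, Gas6 and Pros1 down), beside 33.6% of all 17318 genes tested. The groups did not overlap for 5 of 5, beside 64.2% of all genes. In AD WT against WT microglia 1 of 5 changed (Axl), beside 19.3% of all genes, and the groups did not overlap for 3 of 5, beside 56.9%. With library totals without TMM factors that count was 3, with limma-voom 2 and with the replicate block 2. Between AD CKO and AD WT microglia 3 of 5 changed, beside 32.0%, and 5 of 5 did not overlap, beside 65.5%. Between AD CKO and CKO microglia 4 of 5 changed, beside 14.7%, and 4 of 5 did not overlap, beside 52.7%. That count was 2 without the second AD CKO library. The interaction passed for 2 of 5, beside 12.7% of all genes, and for 3 of 5 in the settings in which Gas6 passed it. The median log2 change of the 5 was 0.03 in CKO against WT microglia and −0.06 in AD WT against WT microglia, where the median of all genes was 0.04 and −0.02.

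**Figure D2:**
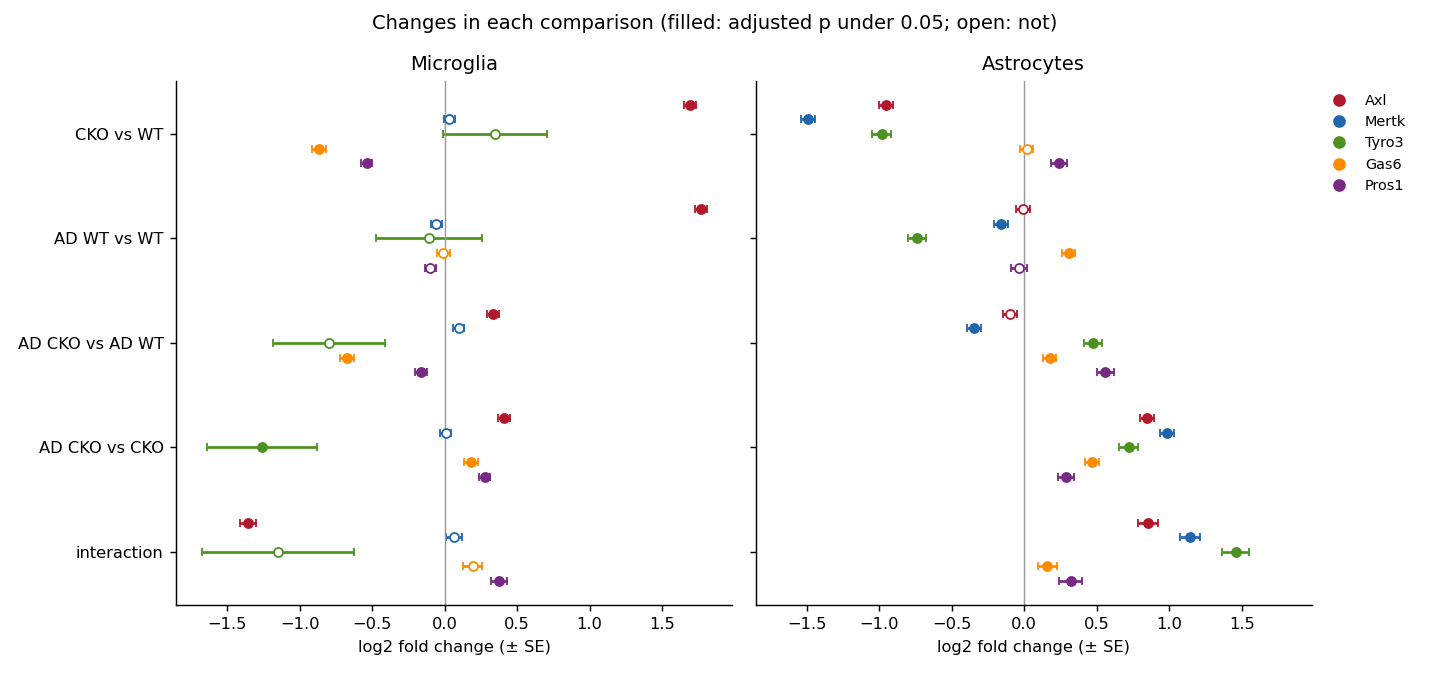
Log2 fold change with its standard error (x axis) of each gene in each comparison within microglia (left) and astrocytes (right); filled points have an adjusted p under 0.05 and open points do not. In microglia Axl lies at 1.69 and 1.77 in the upper comparisons while Gas6 lies at −0.87 in CKO vs WT. In astrocytes the 3 receptors lie between −0.95 and −1.49 in CKO vs WT and all 5 genes lie above 0 in AD CKO vs CKO.

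The makeup of the receptors in microglia shifted with Axl. Per kilobase, Axl made up 41.7% and 44.4% of the summed receptor level in AD CKO, 39.0% and 39.2% in AD WT and 35.4% and 37.3% in CKO, against 15.1% and 15.6% in WT microglia. The ratio of Axl to Mertk per kilobase was 0.715 and 0.8 in AD CKO, 0.64 and 0.644 in AD WT and 0.55 and 0.596 in CKO, against 0.178 and 0.185 in WT microglia. In astrocytes that ratio was 0.746 and 0.742 in AD CKO, 0.642 and 0.609 in AD WT and 0.832 and 0.803 in CKO, against 0.57 and 0.553 in WT astrocytes. The summed ligand level per kilobase in microglia was 247 and 242 CPM per kb in AD CKO, 312 and 314 in AD WT and 207 and 206 in CKO, against 325 and 328 in WT.

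**Figure D3:**
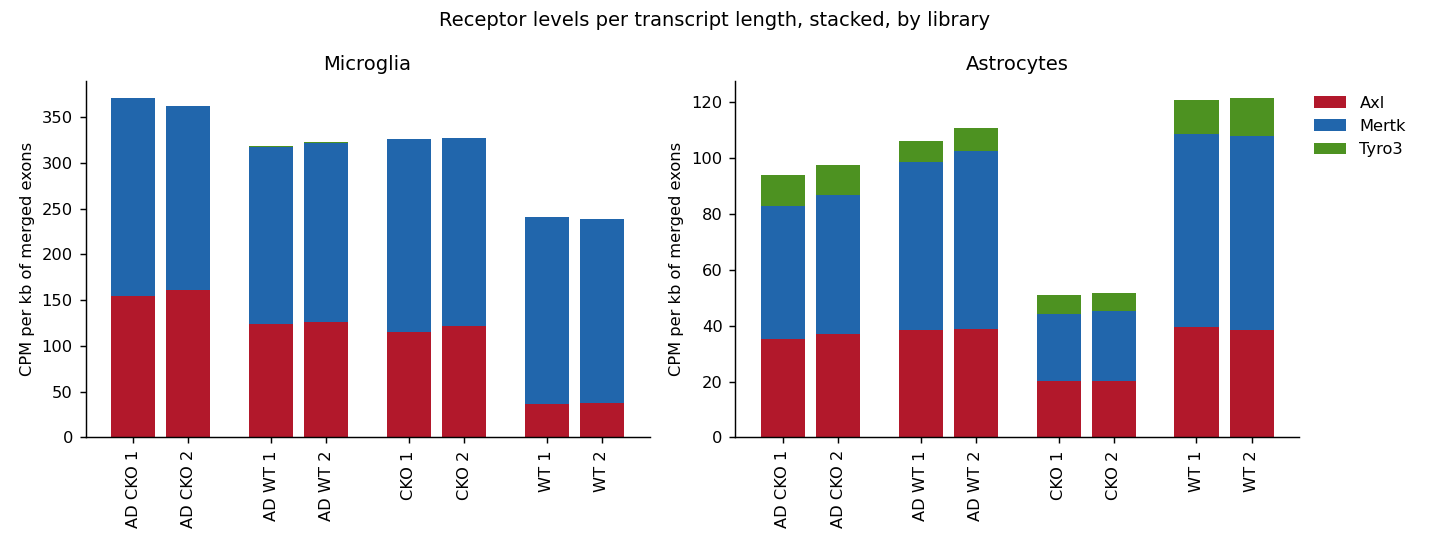
Receptor levels stacked per library in CPM per kb of merged exons (y axis, linear, from 0; the microglia and astrocyte panels have different scales). The summed receptor level is 239 and 241 CPM per kb in WT microglia and 318 or more in the other microglia; in astrocytes it is 51.0 and 51.6 CPM per kb in CKO and 121 in each WT library.

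In astrocytes the receptors were lower in CKO than in WT animals. The knockout was aimed at microglia, and Rack1 in astrocytes read 54.7 and 53.3 CPM in AD CKO, 76.6 and 72.9 CPM in AD WT and 102 and 95.7 CPM in CKO, against 61.1 and 57.9 CPM in WT libraries. Mertk read 205 and 216 CPM in AD CKO, 260.2 and 276 CPM in AD WT and 105 and 108 CPM in CKO, against 299 and 301 CPM in WT astrocytes. The 4 genotypes did not overlap. It fell by 1.49 ± 0.0496 on the log2 scale in CKO against WT astrocytes (adjusted p = 4.79e-17, edgeR) and by 0.35 ± 0.0479 in AD CKO against AD WT astrocytes (adjusted p = 2.28e-06, edgeR). It was 0.98 ± 0.0493 higher in AD CKO than in CKO astrocytes (adjusted p = 1.81e-13, edgeR). Mertk fell in AD WT against WT astrocytes by 0.16 ± 0.0478 (adjusted p = 0.0109, edgeR), a call that ended without the first AD WT library (−0.12, adjusted p = 0.117) or the second WT library (−0.17, adjusted p = 0.0577).

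Axl read 178 and 186 CPM in AD CKO, 194 and 195 CPM in AD WT and 101 CPM in each CKO library, against 198 and 193 CPM in WT astrocytes. The CKO pair stood far below the other 6 libraries. Axl fell by 0.95 ± 0.0486 in CKO against WT astrocytes (adjusted p = 8.88e-14, edgeR) and was 0.85 ± 0.0485 higher in AD CKO than in CKO astrocytes (adjusted p = 1.7e-12, edgeR). It differed by −0.01 ± 0.0474 in AD WT against WT (adjusted p = 0.927) and by −0.10 ± 0.0473 in AD CKO against AD WT astrocytes (adjusted p = 0.0897, edgeR). With library totals without TMM factors the last value turned to 0.10 (adjusted p = 0.0905).

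Tyro3 read 68.8 and 66.1 CPM in AD CKO, 47.3 and 49.8 CPM in AD WT and 41.7 and 40.2 CPM in CKO, against 77.2 and 84.8 CPM in WT astrocytes. WT was highest and CKO lowest, with no overlap between genotypes. It fell by 0.98 ± 0.0653 in CKO against WT astrocytes (adjusted p = 8.61e-12, edgeR) and by 0.74 ± 0.0643 in AD WT against WT astrocytes (adjusted p = 7.79e-09, edgeR). In AD CKO against AD WT astrocytes it was higher by 0.47 ± 0.0642 (adjusted p = 1.91e-06, edgeR), the opposite side from Mertk. It was also 0.72 ± 0.0651 higher in AD CKO than in CKO astrocytes (adjusted p = 2.91e-09, edgeR). Neuron markers, whose cells make much Tyro3, summed to 74.6 CPM or less in AD CKO, 59.2 or less in AD WT, 96.2 or less in CKO and 52.1 or less in WT astrocytes.

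The ligands were not lower in CKO astrocytes. Gas6 read 282 and 269.5 CPM in AD CKO, 247 and 241 CPM in AD WT and 197 and 202 CPM in CKO, against 197 CPM in each WT library. The AD groups stood above both others. Gas6 rose by 0.31 ± 0.0459 in AD WT against WT astrocytes (adjusted p = 1.73e-05, edgeR) and by 0.18 ± 0.0455 in AD CKO against AD WT astrocytes (adjusted p = 0.00243, edgeR). It differed by 0.02 ± 0.0461 in CKO against WT astrocytes (adjusted p = 0.764, edgeR). It was 0.47 ± 0.0457 higher in AD CKO than in CKO astrocytes (adjusted p = 1e-08, edgeR).

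Pros1 read 161 and 176 CPM in AD CKO, 110.5 and 118 CPM in AD WT and 133 and 143 CPM in CKO, against 115 and 119 CPM in WT astrocytes. The knockout groups were the higher ones. It rose by 0.24 ± 0.0565 in CKO against WT astrocytes (adjusted p = 0.000788, edgeR) and by 0.56 ± 0.056 in AD CKO against AD WT astrocytes (adjusted p = 2.25e-08, edgeR). In AD WT against WT astrocytes it differed by −0.03 ± 0.0567 (adjusted p = 0.661, edgeR). Pros1 was 0.29 ± 0.0557 higher in AD CKO than in CKO astrocytes (adjusted p = 0.000134, edgeR).

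Many astrocyte genes moved in the same comparisons. In CKO against WT astrocytes 4 of the 5 genes changed, beside 64.0% of all 20116 genes tested. The median log2 change of the 5 there was −0.95, where the median of all genes was 0.0087. The CKO and WT libraries did not overlap for 4 of 5, beside 81.1% of all genes. The counts were 3 of 5 changed and 3 of 5 not overlapping in AD WT against WT astrocytes, beside 38.0% and 69.2% of all genes. They were 4 of 5 changed and 5 of 5 not overlapping in AD CKO against AD WT astrocytes, beside 52.1% and 75.9%. All 5 changed and none overlapped in AD CKO against CKO astrocytes, beside 59.8% and 79.9%. All 5 passed the interaction, beside 57.8% of all genes. The interaction was 1.46 ± 0.0916 for Tyro3, 1.14 ± 0.0686 for Mertk and 0.85 ± 0.0677 for Axl, with adjusted p of 3.9e-10 or less by edgeR. It was 0.32 ± 0.0795 for Pros1 (adjusted p = 0.00152) and 0.16 ± 0.0647 for Gas6 (adjusted p = 0.0392, edgeR). The Gas6 interaction lost its call with a filter of mean 1 CPM (0.12, adjusted p = 0.0906) and without any of 5 single libraries, where the adjusted p reached 0.116.

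The sum of the 10 astrocyte markers was lower in both knockout groups. It was 14565 and 14725 CPM in AD CKO, 22792 and 23555 CPM in AD WT and 10213 and 10471 CPM in CKO, against 23767 and 24161 CPM in WT astrocyte libraries. By gene, 9 were called lower and 1 higher (log2 0.484) in CKO against WT astrocytes. In AD CKO against AD WT astrocytes 9 were also called lower and 1 higher (log2 1.33). Relative to the WT mean, the marker sum stood at 0.426 and 0.437 in CKO, where Mertk stood at 0.349 and 0.362, Axl at 0.517 in each library and Tyro3 at 0.514 and 0.497. Per astrocyte marker CPM, CKO astrocytes held 0.82 and 0.828 times the WT mean of Mertk, 1.21 and 1.18 times of Axl, 1.21 and 1.14 times of Tyro3, 2.35 and 2.34 times of Gas6 and 2.68 and 2.8 times of Pros1. In AD WT astrocytes the marker sum stood at 0.951 and 0.983 of the WT mean and Tyro3 at 0.584 and 0.615, and in AD CKO astrocytes the marker sum stood at 0.608 and 0.614 while Axl stood at 0.909 and 0.951 and Tyro3 at 0.85 and 0.815. Per astrocyte marker CPM, AD CKO astrocytes held 1.5 and 1.55 times the WT mean of Axl, 1.4 and 1.33 times of Tyro3 and 1.13 and 1.17 times of Mertk.

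Markers of several other cell types had higher sums in the CKO than in the WT astrocyte libraries. Microglia markers summed to 1136 and 1145 CPM in AD CKO, 1110 and 1121 CPM in AD WT and 1803 and 1842 CPM in CKO, against 523 and 527 CPM in WT astrocyte libraries. Endothelial markers summed to 4845 and 4888 CPM in CKO, against 1895 and 1903 CPM in WT, and mural cell markers to 1905 and 1916 CPM in CKO, against 829 and 860.4 CPM in WT. Ependymal and choroid markers summed to 5861 and 5463 CPM in AD CKO, 9529.7 and 8407 CPM in AD WT and 10505.5 and 9188.5 CPM in CKO, against 4638 and 4318 CPM in WT. All 7 were called higher in AD WT against WT astrocytes. Neutrophil markers summed to 28.3 and 27.7 CPM in AD CKO, 35.6 and 29.5 CPM in AD WT and 139 and 128 CPM in CKO, against 51.5 and 54.1 CPM in WT. Oligodendrocyte markers summed to 18655 and 18792 CPM in AD CKO, 6642 and 6832 CPM in AD WT and 12779 and 13094 CPM in CKO, against 14044 and 14185 CPM in WT, with 9 of 9 called lower in AD WT against WT astrocytes. The part of these markers in the astrocyte values was not tested.

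**Figure D4:**
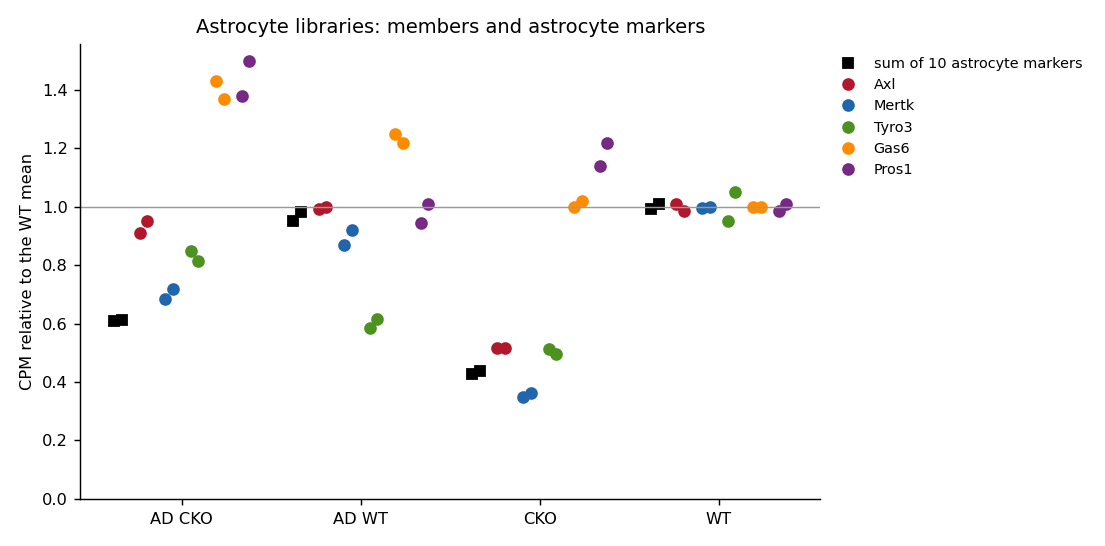
CPM relative to the mean of the WT libraries (y axis, linear, from 0) in each astrocyte library, for the summed astrocyte markers (squares) and the 5 genes (circles). In CKO the markers stand at 0.426 and 0.437 beside Mertk at 0.349 and 0.362, while Pros1 stands at 1.14 and 1.22.

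The CKO against WT change differed between the microglia and the astrocyte libraries for every member. In the fit over all libraries, the CKO against WT change in microglia minus that in astrocytes was 2.61 ± 0.066 on the log2 scale for Axl, 1.49 ± 0.0658 for Mertk and 1.30 ± 0.239 for Tyro3. It was −0.92 ± 0.0684 for Gas6 and −0.81 ± 0.0715 for Pros1. All 5 passed (adjusted p of 4.74e-05 or less, edgeR), beside 46.9% of all genes. For Mertk the change was 0.03 within microglia and −1.49 within astrocytes. The astrocyte marker sum stood at 0.426 and 0.437 of the WT mean in CKO astrocytes, and its part in these differences was not tested. The AD WT against WT change differed for Axl (1.77 ± 0.0649, adjusted p = 4.19e-18) and Gas6 (−0.32 ± 0.0678, adjusted p = 0.000755), 2 of 5 beside 23.6% of all genes. Tyro3 missed there (0.63 ± 0.254, adjusted p = 0.0746, edgeR). It passed with DESeq2 (adjusted p = 0.0432) and with no filter on low counts in edgeR (0.0444). The AD CKO against AD WT change differed for all 5, beside 35.0% of all genes: 0.39 ± 0.0639 for Axl, 0.41 ± 0.0648 for Mertk, −1.32 ± 0.284 for Tyro3, −0.89 ± 0.0678 for Gas6 and −0.76 ± 0.0711 for Pros1. Without the first AD WT microglia library the Tyro3 value was −0.85 and lost its call (adjusted p = 0.0572).

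Genes with the most similar profile were looked up for members whose genotype means spanned at least 1 on the log2 scale. For Axl in microglia these were Chst2, a sulfotransferase gene, at a root mean square distance of 0.159 over 8 libraries, the predicted gene Gm43351 at 0.215, and Acaca, the acetyl-CoA carboxylase of fatty acid synthesis, at 0.217. For Mertk in astrocytes they were Astn1 at 0.0198, Amigo1 at 0.034 and Dkk3 at 0.0413. For Tyro3 in microglia they were Id4 at 0.15, 1110013H19Rik at 0.164 and Gm26670 at 0.172, all at 4.01 CPM or less. These distances carry no test.

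Genes of the wider pathway were counted from lists. In CKO against WT microglia all 4 genes of vitamin K-dependent carboxylation, the step that makes Gas6 and protein S able to bind phosphatidylserine, changed, where 33.6% of all genes did. Vkorc1, which recycles vitamin K, rose by 0.57 ± 0.0545, and the carboxylase gene Ggcx fell by 0.32 ± 0.0784. Of 5 genes that act on TAM receptor shedding 3 rose and 1 fell: Rhbdf2, a partner of the protease ADAM17, rose by 0.93 ± 0.0802, and Adam10 fell by 0.25 ± 0.042. Of 13 genes downstream of the receptors 1 rose (Src, 0.50 ± 0.0988) and 3 fell, among them Elmo1, an engulfment adaptor (−0.41 ± 0.0411).

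Among the other phosphatidylserine receptors and bridging molecules 9 of 15 tested rose and 3 fell in CKO against WT microglia. Trem2, a lipid receptor of microglia, rose by 0.62 ± 0.04 (1764 CPM in CKO microglia and 1145 CPM in WT microglia) and Anxa5 by 0.68 ± 0.0522. None of 7 genes that act for or against phosphatidylserine exposure rose and 4 fell, with the flippase gene Atp8a2 at −1.03 ± 0.05. Their count gives no direction for exposure itself. Of 8 genes of the liver X receptor axis, a lipid sensor known to drive Mertk in macrophages, 4 rose and 3 fell. Apoe rose by 2.11 ± 0.0418. Of 9 tested genes of interferon receptor signalling and its feedback, through which TAM receptors dampen inflammation, 5 rose and 2 fell. The feedback inhibitor Socs3 fell by 1.38 ± 0.066. The share of all genes called in that comparison, 33.6%, stands beside each of these list counts. The list medians ran from −0.34 (carboxylation) to 0.38 (interferon and feedback), where the median of all genes was 0.04.

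In AD WT against WT microglia, where Axl alone of the 5 changed, Apoe rose by 1.46 ± 0.041 and Anxa5 by 0.92 ± 0.0522. Timp3, an inhibitor of the shedding proteases, rose by 0.91 ± 0.0672. Of the 13 downstream genes none rose and 5 fell, where 19.3% of all genes changed, with Elmo1 at −0.49 ± 0.0411. With the AD model present, Src rose in AD CKO against AD WT microglia by 0.93 ± 0.0991 and Apoe by 0.74 ± 0.0403. The bridging molecule Mfge8 fell by 0.97 ± 0.0715 there. All 4 carboxylation genes rose in AD CKO against CKO microglia, by 0.26 to 0.44, where 14.7% of all genes changed.

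In CKO against WT astrocytes Mfge8, an astrocyte bridging molecule for integrins, fell by 1.28 ± 0.0341, with 2213 CPM in CKO astrocytes and 5361 CPM in WT astrocytes. Of 14 tested phosphatidylserine receptors and bridging molecules 6 rose and 6 fell, where 64.0% of all genes changed. Trem2 was higher by 4.12 ± 0.0968 (125 CPM in CKO astrocytes and 7.16 CPM in WT astrocytes) beside the higher microglia markers. Of the 13 downstream genes 4 rose and 8 fell, among them Src (−1.35 ± 0.0803), Dock1 (−0.99 ± 0.0742) and Ptk2 (−0.96 ± 0.0551), and Vav1, a gene of blood-derived and microglial cells, rose by 1.70 ± 0.166. All 5 shedding genes changed, 1 up and 4 down, beside the same 64.0% of all genes, with Rhbdf1 at −1.48 ± 0.0681. Rhbdf1 rose in AD CKO against CKO astrocytes by 1.21 ± 0.0679, Src by 0.97 ± 0.0805 and Stat2 by 1.56 ± 0.0791. These calls stand at an adjusted p under 0.05 by edgeR over all genes, and the list counts carry no test of their own.

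**Figure D5:**
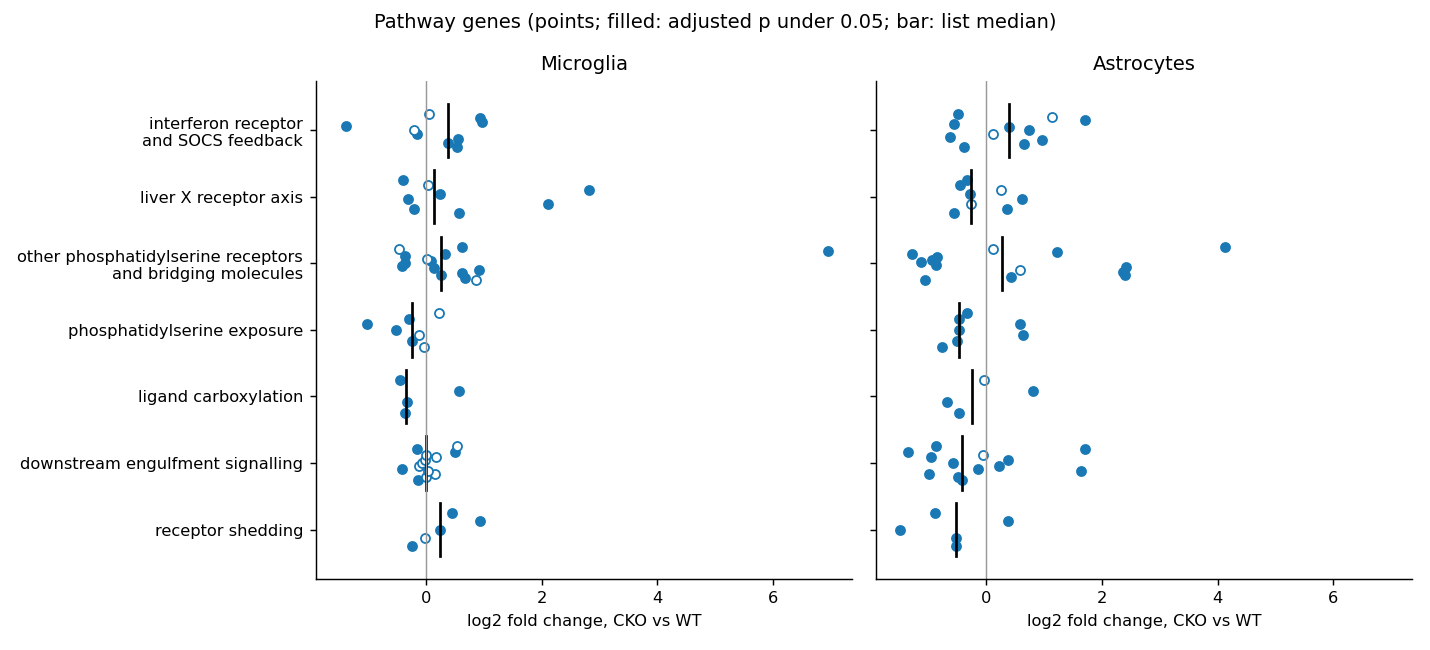
Log2 fold change of CKO against WT (x axis) for each tested gene of 7 pathway lists in microglia (left) and astrocytes (right); filled points have an adjusted p under 0.05 and each bar is the list median. In microglia the carboxylation genes lie between −0.44 and 0.57, and in astrocytes the shedding genes lie between −1.48 and 0.38. The point at the far right in microglia is Stab2, at 0 CPM in both WT libraries, so its fitted value rests on the prior count.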

How the data were processed

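The 16 bulk libraries hold RNA of mouse microglia or astrocytes, with 2 per genotype and cell type. Per the labels' protocols, libraries were made with SMART-Seq v4 and read as pairs on an Illumina NovaSeq. The submitters' processing notes name fastp, HISAT2, StringTie and mm10, with no versions. The authors deposited expected counts per gene, since the values are not all whole numbers; the counting step and annotation release are not given in the sources used here.

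The expected counts were rounded to whole numbers. Each table was fitted over its 8 libraries, and both tables over all 16 for differences between cell types, with edgeR 4.0.16 in R 4.3.3 (TMM factors, filterByExpr with a minimum count of 10, robust quasi-likelihood test, Benjamini-Hochberg adjustment over all genes tested, threshold 0.05). CPM values are TMM-scaled. Standard errors were taken from the F statistic. The fit was tested on simulated data first. Gene positions and lengths came from GENCODE M21, and promoters from RefSeq GRCm38.p6. Alternatives were other size factors, filters, limma 3.58.1, DESeq2 1.42.0, the compared groups alone, a replicate block and leaving out each library. Library totals without TMM factors were added after seeing the data.

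The text names the 5 members, from each pathway list at most 4 genes with the smallest p among those called, and the 3 nearest profiles per member. The members and lists were chosen with earlier results of these data known. Stab2 is named because its WT libraries were at 0. A gene of the pathway lists is not reported here.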

Additional observations from a re-analysis of the deposited data

Results flagged for a closer look

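The interaction, which is the knockout effect with the AD model minus the knockout effect without it, differed from 0 for 2 members in microglia by edgeR, where 12.7% of all genes passed. It was −1.357 for Axl and 0.3754 for Pros1 on the log2 scale. In astrocytes it differed for all 5 members, at 0.8535 for Axl, 1.143 for Mertk, 1.458 for Tyro3, 0.1597 for Gas6 and 0.3199 for Pros1, where 57.8% of all genes passed. The Gas6 value lost its call in 6 alternatives, with an adjusted p of up to 0.116.

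The knockout effect without the AD model, in microglia minus in astrocytes, differed from 0 for all 5 members, where 46.9% of all genes passed. It was 2.609 for Axl, 1.492 for Mertk, 1.295 for Tyro3, −0.9189 for Gas6 and −0.8114 for Pros1. The part of the lower astrocyte marker sum of CKO astrocytes in these values was not tested. The effect of the AD model with Rack1 intact differed between the cell types by 1.769 for Axl and −0.3213 for Gas6, where 23.6% of all genes passed. Tyro3 missed there in the main edgeR fit but passed with DESeq2 (adjusted p = 0.0432) and with no filter on low counts in edgeR (0.0444). The knockout effect with the AD model differed between them by 0.3935 for Axl, 0.409 for Mertk, −1.316 for Tyro3, −0.8895 for Gas6 and −0.7607 for Pros1, where 35.0% of all genes passed. The Tyro3 value lost its call without the first AD WT microglia library (−0.85, adjusted p = 0.0572).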

How the results depend on the processing

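Of 928 values of called member results under the alternatives, 912 kept their call and direction. The count of members changed in AD WT against WT microglia was 1, and became 3 with library totals without TMM factors, 2 with limma-voom and 2 with the replicate block. In AD CKO against CKO microglia 2 to 4 members changed when each library was left out in turn, with 2 of them called without the second AD CKO library. Within each cell type, same-numbered libraries of different genotypes did not deviate together (correlations of −0.0303 to 0.0477). Same-numbered microglia and astrocyte libraries were not compared, so what the replicate numbers mark stays unknown. The replicate block gave Mertk an adjusted p of 0.0177 in AD CKO against AD WT microglia.

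Some differences near 0 that passed no test turned sign. With library totals, Axl in AD CKO against AD WT astrocytes was 0.1005 and Mertk in AD CKO against CKO microglia −0.0848. With the compared groups alone that Mertk value was −0.00048, and Gas6 in AD WT against WT microglia was 0.00041. Gas6 there was 0.0026 with a filter of mean 1 CPM and 0.0016 with no filter, where Mertk in CKO against WT microglia was −0.00027. Leaving out libraries gave −0.0352 to 0.017 for Gas6 and −0.58 to 0.25 for Tyro3 in AD WT against WT microglia, −0.0209 to 0.0614 for Mertk in AD CKO against CKO microglia, and −0.0144 to 0.0494 for Mertk in CKO against WT microglia. In astrocytes it gave −0.0361 to 0.0021 for Axl and −0.0931 to 0.0054 for Pros1 in AD WT against WT, and −0.0017 to 0.0335 for Gas6 in CKO against WT. Calu, called higher in WT microglia than in WT astrocytes, was −0.13 with library totals. Causes were not tested. Library totals moved the median of all genes to 0.16 in AD CKO against AD WT astrocytes, where 7244 genes were higher and 3117 lower, beside 5058 and 5425 with TMM factors. The Tyro3 values in microglia rested on few reads, 28 to 74 per library, where the astrocyte libraries held 1208 to 2742.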
